A study of Drosophila melanogaster with 31 samples.

Results

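The 73 mitochondrial ribosomal protein genes of *Drosophila melanogaster* described here are the annotated protein-coding genes whose symbols start with mRpL (47 genes of the large subunit) or mRpS (26 genes of the small subunit), out of 13968 protein-coding genes of dm6. They lie on all the large chromosome arms, with 12 on 2L, 12 on 2R, 17 on 3L, 21 on 3R and 11 on X. Chromatin accessibility was measured by ATAC-seq, in which a transposase cuts open DNA, in whole embryos that lacked the transcription factor Grainy head (Grh) and in their controls. The 31 samples formed 12 conditions. At stage 5, when zygotic transcription becomes widespread, and at stage 6, when gastrulation begins, *grhM-* embryos, which lacked maternal Grh, were set beside *grhM+* embryos. *grhM-Z-* embryos, labelled as lacking maternal Grh and homozygous for *grhB37*, were set beside *grhM+Z+* embryos, labelled as maternally positive and *grhB37/+*. Zygotic mutants (*grhB37/B37*) were set beside *grhB37/+* embryos at stage 6 and at 11-12 h after egg laying. All 3 experiments used the null allele *grhB37*. Maternal Grh was removed by mitotic clones of this allele in the mothers' germline, and for the zygotic mutants it was carried over a balancer chromosome. Controls labelled *grhB37/+* or *grhM+Z+* still carried 1 mutant copy, and the zygotic genotype of *grhM-* and *grhM+* embryos is not given in the labels. Each early condition had 3 single embryos, except *grhM+Z+* at stage 6 with 2, and each condition at 11-12 h was 1 library of 7 pooled embryos.

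The mitochondrial ribosome makes the few proteins that are encoded in mitochondrial DNA, all of them parts of the oxidative phosphorylation machinery. Its RNAs come from the mitochondrial genome, whereas its proteins are encoded in the nucleus, made in the cytoplasm and imported. Many of these proteins have counterparts in bacterial ribosomes and carry their numbers, such as mRpL2, mRpL11 and mRpS7, and others, such as mRpL48, mRpL52, mRpL53 and mRpS33, have none. The genes are expressed in nearly all cells, which places them with the housekeeping genes, and promoters of that class in flies typically carry short strings such as the DRE, Motif 1 and an E-box.

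The authors' lists hold peaks of all embryos of a condition together in the maternal and the zygotic experiment. The lists of *grhM-Z-* and *grhM+Z+* keep the 11 embryos apart, so that there were 19 sets of peaks, 17 of them early. Early sets held 24961 to 81187 peaks, against 10509 in *grhB37/B37* and 20540 in *grhB37/+* at 11-12 h. The median local background at a summit, a measure of depth solved from the deposited values, was 2.54 to 5.06 in single embryos, 7.02 to 13.81 in the other early lists, and 15.95 and 15.57 at 11-12 h. The number of peaks on the Y chromosome fell into a low range of 55 to 89 and a high range of 263 to 454 among the 11 embryos. The high range held *grhM+Z+* embryo a of stage 6 (263), and at stage 5 *grhM+Z+* embryo c (324) and *grhM-Z-* embryos b (387) and c (454). These embryos were thus unevenly spread over stages and genotypes, and the part of this in the differences of single members on X was not tested. Whole embryos average over all cells, so fewer accessible cells and less accessibility per cell cannot be told apart.

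For each gene, the strongest peak with its summit within 1000 bp of an annotated start site was taken, by −log10 q. Such a start-site peak was the rule at mitochondrial ribosomal protein genes in early embryos. Between 58 and 73 of the 73 genes had one in each of the 17 early sets (79.5% to 100%), with a median of 69, against 57.3% to 86.7% of all protein-coding genes. A peak was present in every early set at 53 of them (72.6%, against 46.0% of all genes), and no member lacked a peak everywhere, whereas 855 of all genes (6.12%) did. In all 19 sets, the late ones included, 19 members had a peak (26.0%, against 22.3% of all genes).

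The peaks were common but of middling height. Their median fold enrichment over the local background lay between 4.08 and 7.70 in the early sets, nearly the same range as the 4.17 to 7.69 of all genes with a peak. Their summits lay at a median distance of 32 to 100 bp from the start site, against 89 to 201.5 bp for all genes. The share of summits within 200 bp was nearer to that of all genes, at 51.7% to 63.9%, against 49.9% to 59.2%. Each gene was also given a percentile among the 13968 genes by −log10 q, with genes without a peak sharing the lowest ranks. The members' median percentile was 63.6 to 70.5 in the early sets. Averaged over the 12 lists, the late ones included, 59 members lay above percentile 50 (80.8%, against 48.7% of all genes). By this mean 2 lay above percentile 90 (2.74%, against 5.23%). Among the early lists, the members' share above percentile 90 was below that of all genes only in *grhB37/B37* at stage 6 (9.59%, against 10%). It was highest at stage 5, at 15.1% in *grhM+* (against 10%) and in *grhM+Z+* (against 8.56%). At 11-12 h it was 6.85% in *grhB37/B37* (against 10.01%) and 8.22% in *grhB37/+* (against 10%).

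Other gene groups with related functions placed the members in between. The median of the mean percentile was 65.9 for the 73 members, 73.6 for 92 cytoplasmic ribosomal protein genes, 61.9 for 92 respiratory chain genes, 60.9 for 15 mitochondrial import genes, 52.0 for 33 genes of mitochondrial translation and gene expression, and 48.4 for all genes. Members of the large subunit, with a median of 64.3, and of the small subunit, with 67.6, overlapped over nearly their whole ranges (36.6 to 93.5 and 25.5 to 88.4). The spread among single genes was therefore much wider than the difference between the subunits.

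**Figure D1:**
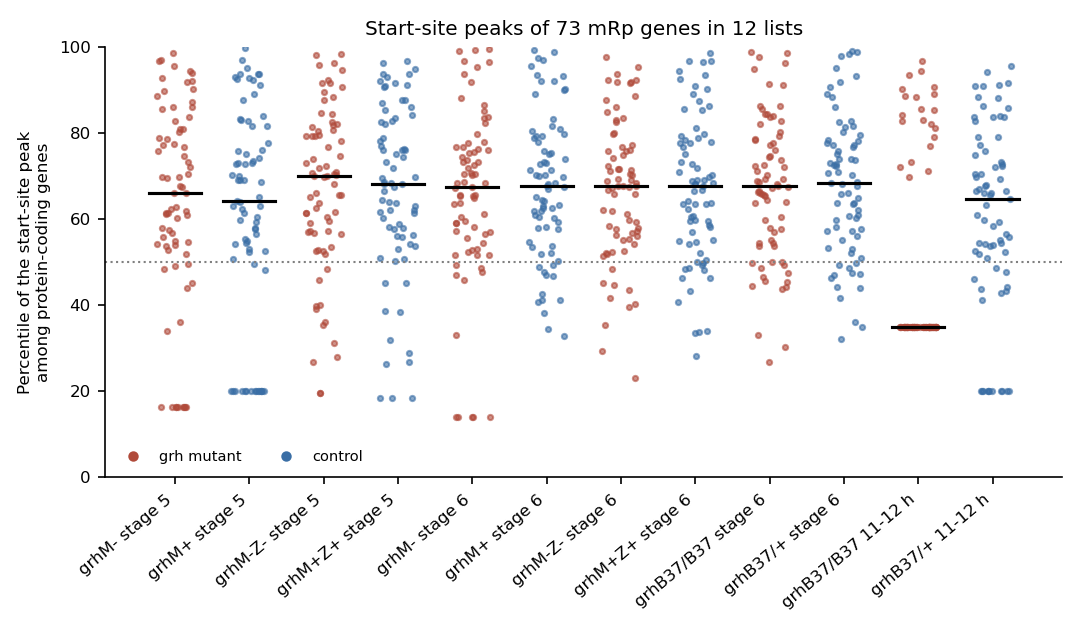
Percentile of the strongest start-site peak of each of the 73 mRp genes among 13968 protein-coding genes (y axis, 0 to 100) in the 12 lists (x axis). Each point is 1 gene, the mean over embryos where a list keeps them apart, in red for grh mutants and in blue for controls, and bars are medians. The medians of the early lists lie above the dotted line at percentile 50, and in the 11-12 h list of grhB37/B37 most genes share the rank of genes without a peak, 34.95.

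The highest mean percentiles over the 12 lists, 93.5 and 93.4, belonged to mRpL48 and mRpL53, both large-subunit proteins without a bacterial counterpart. This mean depends on whether a member had a peak in the short list of *grhB37/B37* at 11-12 h. By the median percentile the order was mRpL15 (97.7), mRpL48 (95.2), mRpL50 (94.1), mRpS17 (93.4) and mRpL53 (93.2). The peak of mRpL48, on chromosome 2L, ranked between 15 and 2346 among all peaks of a single embryo. Its fold enrichment ran from 2.05 in *grhB37/B37* at 11-12 h to 19.3 in a *grhM+Z+* embryo at stage 6, with a median of 11.8. mRpL48 was within the highest 1% of genes in 3 of the lists, at percentiles 99.6 in *grhM-* and 99.4 in *grhM+* at stage 6 and 99.1 in *grhB37/+* at stage 6.

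The next by mean percentile were mRpL15 (88.7), mRpS14 (88.4), mRpL21 (88.3), mRpS6 (86.3), mRpS17 (86.3), mRpL34 (86.3), mRpL50 (85.4) and mRpS21 (85.4). All 10 members highest by mean percentile had a gene on the opposite strand starting upstream of them, head to head. These neighbours have unrelated roles. AGO1, beside mRpL53, is the Argonaute protein of microRNA silencing, rept, beside mRpL21, is an ATPase of chromatin complexes, Nop60B, beside mRpS17, modifies cytoplasmic ribosomal RNA, and Dg, beside mRpL34, is the receptor dystroglycan. CtIP, beside mRpL15, acts in the repair of DNA breaks, Naa15-16, beside mRpS14, in acetylation of new proteins, and Droj2, beside mRpS21, is a DnaJ-type chaperone.

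At the other end was mRpS33, a small-subunit protein with no bacterial counterpart, with a mean percentile of 25.5. It had a peak in 6 of the 19 sets and a fold enrichment of 2.35 to 3.35 there. mRpS9 (mean percentile 32.9, peak in 10 sets), mRpS35 (35.5, in 16 sets), mRpL54 (36.6, in 7 sets) and mRpL20 (37.7, in 14 sets) followed. mRpL54 had no peak in any of the 8 sets of stage 5, and its peak, at a fold of 1.79 to 6.02, was listed in 6 sets of stage 6 and in *grhB37/+* at 11-12 h. The depth also differed between the stages, with a median background of 3.23 to 5.06 in embryos of stage 6 and 2.54 to 4.01 in embryos of stage 5, and its part in these missing peaks was not tested. In all, 20 members lacked a peak in at least 1 early set.

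Most members shared their promoter region with another gene. A divergent partner, a gene on the other strand whose start site lay upstream within 1000 bp, was present at 58 of the 73 members (79.5%), against 36.2% of all genes. With a limit of 500 bp there were 53 (72.6%, against 27.3%). The same share was 59.8% for cytoplasmic ribosomal protein genes, 48.9% for respiratory chain genes, 48.5% for genes of mitochondrial translation and gene expression, and 33.3% for import genes.

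The gap between the paired start sites had a median of 283 bp (20 to 793 bp) in the 58 members and 298 bp in all divergent genes. A gap of up to 100 bp was found in 18 of them (31.0%, against 16.5%), such as mRpL18 and Taz, 20 bp apart, and mRpS14 and Naa15-16, 21 bp apart. In a few cases the partner is itself a mitochondrial gene, such as ATPsynD, a subunit of ATP synthase, beside mRpL55, and Mitofilin, an organizer of the inner membrane, beside mRpL35. HtrA2, a protease of the intermembrane space, starts 126 bp from mRpL11. These examples were chosen after the partners had been read.

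In most pairs both genes had the same summit as their strongest start-site peak. This held wherever both had a peak for 47 of the 58 pairs, in some sets for 9, and never for mRpS23 and mRpL28, which makes 958 of 1017 peaks (94.2%). In *grhM+* at stage 6, in which all 73 members had a peak, the summit lay closer to the start site of another gene than to that of the member at 38 (52.1%, against 24.3% of all genes). The values of these members therefore describe a shared promoter region and not the member alone. When only summits closest to a gene's own start site were counted, an alternative chosen after seeing the data, 29 members had a peak in every early set (39.7%, against 36.1% of all genes) and the median of the mean percentile was 55.7, against 46.1 for all genes. The members' excess over all genes in both measures was therefore smaller without shared summits.

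Members with a partner stood higher in accessibility than those without. Their median mean percentile was 68.9, near the 67.9 of all divergent genes, and the 15 members without a partner had 51.2, against 34.4 for all genes without one. No peak was shared between 2 members in any set.

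The sequence around the start sites showed a second feature. The E-box string CAGCTG, which reads the same on both strands, was present in the 250 bp before to 50 bp after the start site in 40 of the 73 members (54.8%), against 17.9% of all genes and 22.2% of all divergent genes. The share was 48.5% in the 33 genes of mitochondrial translation and gene expression, 25.0% in respiratory chain genes, 26.7% in import genes and 9.78% in cytoplasmic ribosomal protein genes. The reversed string GTCGAC, of the same base composition, was present in 1.37% of members and 4.17% of all genes.

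The string had a preferred place. Counted from the start site as position 0 to the first base of the string, the closest copy had a median position of 4 in the members and -46 in all genes with the string. It lay within 50 bp of the start site in 34 of the 40 members (85.0%, against 52.0% of genes with the string). The most populated window was that from 10 to 29 bp downstream, with 19.2% of all members, against 2.28% of all genes, followed by that from -10 to 9 bp, with 13.7% against 2.51%. The windows also showed thymines on one side: the string followed by TT, or preceded by AA, was present in 27 members (37%, against 7.57% of all genes), a count made after the sequences had been read. Among genes with the string, which leaves out that members carried it more often, this was 67.5% of 40 members and 42.3% of 2497 genes.

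**Figure D2:**
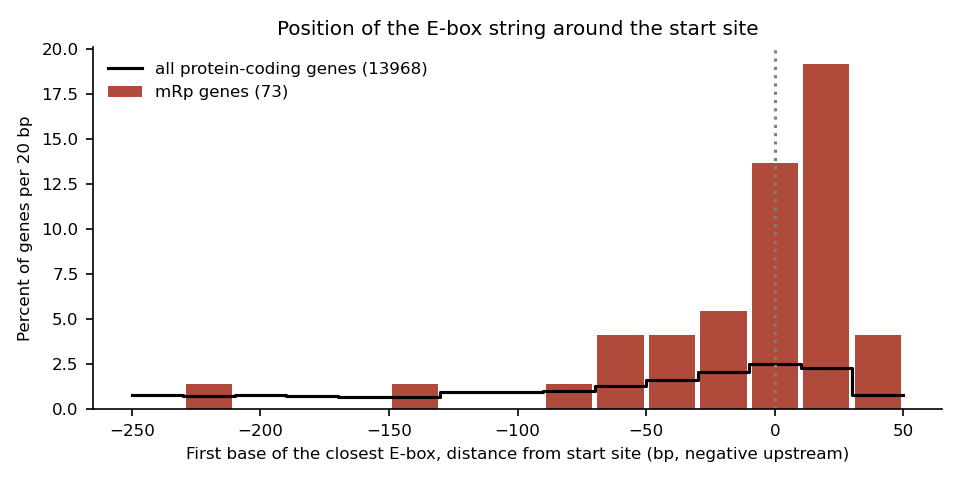
Position of the E-box string closest to the start site in 20 bp bins (x axis, bp from the start site, negative upstream) as the percentage of genes per bin (y axis). Bars show the 73 mRp genes and the line all 13968 protein-coding genes. The bars reach 19.2% just downstream of the start site, where the line lies at 2.28%.

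The 8 examples below are 30 bases on the gene's own strand around the E-box closest to the start site. They are shown for the position of the string, given in capitals, and for its flanks. They were read from the RefSeq sequence of dm6 on the listed chromosomes.
mRpL48 (chr2L:1710471-1710500, + strand, string at position 21): gctgcacgccatCAGCTGgtgatataacct
mRpL28 (chr2L:4973979-4974008, + strand, string at position 15): ttcacatacgaaCAGCTGttttttccaaac
mRpL2 (chr3L:11120845-11120874, + strand, string at position 10): aacgccgcgtaaCAGCTGttttcagccgca
mRpL40 (chr3R:11407929-11407958, + strand, string at position 23): cagcaacaaaaaCAGCTGttcgtacattac
mRpS21 (chr3R:13381790-13381819, - strand, string at position 2): agtgatattcatCAGCTGtttagcagtaca
mRpL11 (chr3R:14511821-14511850, + strand, string at position -5): cagcaataccatCAGCTGttgctgcttctt
mRpL55 (chr3R:19094874-19094903, - strand, string at position 14): cggtcacactatCAGCTGcctggcagcaaa
mRpS25 (chrX:14582959-14582988, - strand, string at position 6): tagccgaccgatCAGCTGttcgcattacac

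In mRpL28, mRpL2, mRpL40, mRpS21, mRpL11 and mRpS25 the string is followed by TT, and in mRpL48 and mRpL55 by other bases. In all 8 it lies within 23 bp of the annotated start site, inside the first exon or across its first base. These are examples and give no share of members. In others the closest copy lay further away, such as at position -227 in mRpL51.

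The DRE string ATCGATA, known in flies as the site of the factor DREF, was present on either strand in 24 members (32.9%, against 17.7% of all genes), and in 40.2% of cytoplasmic ribosomal protein genes. Most of the members are divergent, and among genes with a divergent partner the shares were close, 32.8% of 58 members and 28.3% of all such genes. Without a partner they were 33.3% of 15 members and 11.6% of all such genes. Either the E-box or the DRE was found in 52 members (71.2%, against 31.8% of all genes), and both in 12. The 60 bases before the start site, none of them in an annotated exon, are shown for 4 members in which the DRE lies close to it, with DRE and E-box strings in capitals.
mRpL39 (chr3L:14999667-14999726, - strand): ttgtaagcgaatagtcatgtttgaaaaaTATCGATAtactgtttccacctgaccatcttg
mRpL32 (chr3R:31252812-31252871, + strand): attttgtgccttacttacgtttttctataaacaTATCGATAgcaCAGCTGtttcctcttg
mRpL16 (chrX:1890196-1890255, + strand): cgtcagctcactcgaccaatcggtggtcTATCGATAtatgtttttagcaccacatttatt
mRpS25 (chrX:14582983-14583042, - strand): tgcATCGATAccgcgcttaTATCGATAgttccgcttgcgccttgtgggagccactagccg

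In mRpL39, mRpL32 and mRpL16 the capitals span 2 overlapping copies of the DRE on opposite strands. mRpL32 has the E-box 3 bases after them, and mRpS25 has 2 separate DRE sites upstream of the E-box shown before.

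Other strings were closer to their shares among all genes, or below them. Motif 1 (GGTCACAC) was present in 8 members (11.0%, against 7.52%), the TATA box (TATAAA) in 46.6% (against 45.3%), and the GAGA string (GAGAG) in 12 members (16.4%, against 30.2%). The Zld string (CAGGTAG), bound by the pioneer factor Zelda, was found in 0 members (against 1.72% of all genes). Within 100 bp of the summit in *grhM+* at stage 6, the E-box was present at 27 members (37%, against 17.7% of genes with a peak), the DRE at 17 (23.3%, against 17.4%) and the GAGA string at 11 (15.1%, against 27.7%).

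The Grh string (AACCGGTT or AACTGGTT, either strand) was present in the promoter windows of mRpS17, mRpS34 and mRpS26, which are 4.11% of members, against 2.94% of all genes. That of mRpS34 lies at position -99 and that of mRpS26 at position -2, as these 30 bases show with the string in capitals.
mRpS34 (chr3L:16347964-16347993, + strand): tttcaaaatttAACTGGTTttaaaatcgcc
mRpS26 (chr3L:18106566-18106595, + strand): gaactgcgcggAACCAGTTcaccgacaaca

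Members with the E-box or the DRE were not the more accessible ones. The median of the mean percentile was 59.9 with the E-box and 68.8 without it, and 62.3 with the DRE and 67.6 without it. The 8 members with Motif 1 had a median of 77.9, against 63.3 for the other 65.

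**Figure D3:**
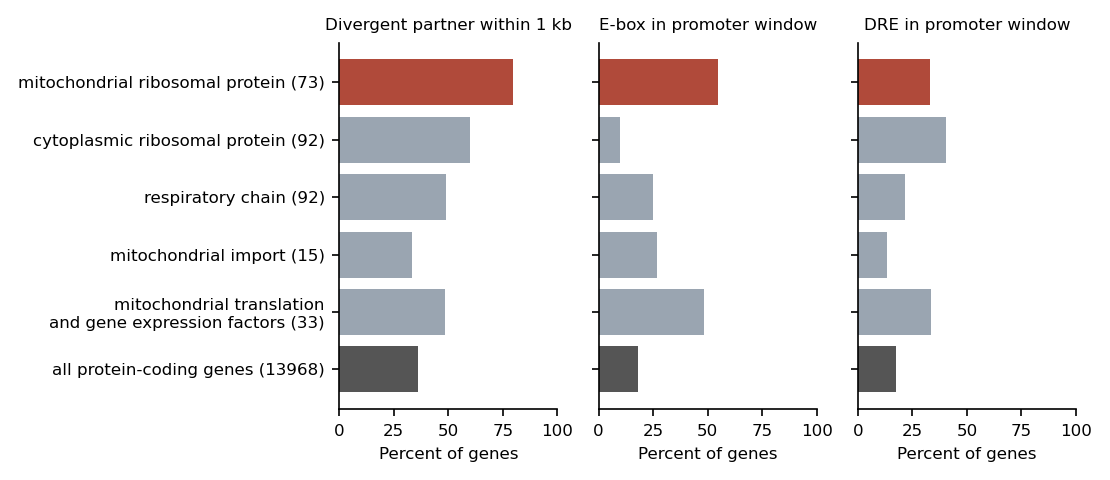
Percentage of genes (x axis, 0 to 100) in 6 gene groups (rows, number of genes in parentheses) with a divergent partner within 1 kb, with the E-box string and with the DRE string in the window from 250 bp before to 50 bp after the start site. The mRp genes have 79.5%, 54.8% and 32.9%, and all protein-coding genes 36.2%, 17.9% and 17.7%.

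Accessibility at stage 6 was compared with that at stage 5 to follow these promoters through the onset of gastrulation. The fold enrichment of the start-site peak was divided by the median over genes with a peak in the same set (the scaled fold), and its log2 was tested with limma. The p-values were adjusted by the Benjamini-Hochberg method over all genes tested, with 0.05 as the threshold. In 4 pairs of lists, 26.3% of 6430 genes passed. Of 53 members tested, 9 were higher and 4 lower at stage 6, which is 24.5%. In the 11 single embryos, 19.1% of 6762 genes passed, and of 59 members 4 were higher and 5 lower, which is 15.3%. The members' shares were thus not above those of all genes, and their median log2 differences, 0.08 in the pairs and 0.02 in the embryos, lay near the 0.05 and 0.03 of all genes. The *grhM-Z-* and *grhM+Z+* embryos enter both tests, so the tests are not independent. Members without a peak in every set of a fit were left out of it. The share of members with a peak was 79.5% in *grhM+* and 87.7% in *grhM-* at stage 5. At stage 6 it was 100% and 93.2%. All genes had 60.1% and 67.3% at stage 5, and 74.3% and 71.9% at stage 6. In single embryos both shares were also higher at stage 6. The depth differed as well, and its part in this was not tested.

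The direction of these counts depends on the scaling. Without division by the median, the median over all genes was 0.17 higher in the pairs and 0.13 higher in the embryos on the log2 scale, 13 members in the pairs and 7 in the embryos were higher, and 0 were lower in either. The split over all genes then was 1750 higher and 163 lower in the pairs, against 1061 and 633. With the median taken over the genes common to the fit, a choice made after seeing the data, 7 members were higher and 7 lower in the pairs, and 2 higher and 6 lower in the embryos, with 846 higher and 920 lower genes in the pairs and 608 and 654 in the embryos, against 769 and 523 with each embryo's own median.

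mRpL52 changed most. It encodes a large-subunit protein and starts 50 bp from CG12107, with which it shared its summit in every set that held a peak. Its scaled fold enrichment at stage 6 was 1.27, 1.3 and 1.65 in the *grhM-Z-* embryos and 1.23 and 1.21 in the *grhM+Z+* embryos. At stage 5 the mRpL52 peak had 0.95, 0.827 and 0.578 in the *grhM-Z-* embryos and 0.893, 0.954 and 0.914 in the *grhM+Z+* embryos. All 5 embryos of stage 6 were above all 6 of stage 5.

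The difference at mRpL52 was 0.64 on the log2 scale in the embryos (SE 0.13, adjusted p = 0.0042 by limma) and 0.83 in the pairs of lists (SE 0.14, adjusted p = 0.0017 by limma). In the maternal experiment, whose embryos are not among the 11, the scaled fold of mRpL52 was 1.42 in *grhM-* and 1.5 in *grhM+* at stage 6, against 0.876 in *grhM-* and 0.591 in *grhM+* at stage 5. Each of the 4 pairs was higher at stage 6, by 0.41 to 1.35 on the log2 scale. mRpL52 passed the threshold in all 11 fits that left out 1 embryo and in all 4 that left out 1 pair.

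mRpL53, whose promoter is shared with AGO1, moved the other way. In embryos of stage 6 its scaled fold was 1.59, 1.13 and 1.36 in *grhM-Z-* and 1.32 and 1.16 in *grhM+Z+*. In embryos of stage 5 mRpL53 had 1.64, 1.79 and 2.17 in *grhM-Z-* and 1.37, 1.86 and 1.46 in *grhM+Z+*. The stages overlapped in 1 stage 6 embryo, which lay above 2 of the stage 5 embryos.

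In the pairs of lists mRpL53 fell by 0.51 on the log2 scale (SE 0.11, adjusted p = 0.0064 by limma), and in the embryos by 0.39 (SE 0.13, adjusted p = 0.043 by limma). Without scaling it was -0.34 in the pairs, with an adjusted p of 0.089 by limma, and -0.26 in the embryos, with an adjusted p of 0.25 by limma, so that both calls were lost while the sign stayed.

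mRpS25, a small-subunit protein with no bacterial counterpart, was higher at stage 6. Its scaled fold was 1.26, 1.12 and 0.877 in *grhM-Z-* and 1.06 and 1.04 in *grhM+Z+* embryos of stage 6. In embryos of stage 5 mRpS25 had 0.890, 0.635 and 0.542 in *grhM-Z-* and 1.05, 0.777 and 0.787 in *grhM+Z+*. The gene lies on X. Its values 0.635, 0.542 and 0.787 at stage 5 and 1.06 at stage 6 came from embryos in the high range of Y peaks, and the part of this in its stage difference was not tested. The stages overlapped, with 2 embryos of stage 6 below the highest value of stage 5, and 2 embryos of stage 5 above the lowest value of stage 6.

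The log2 difference of mRpS25 was 0.50 in the pairs (SE 0.11, adjusted p = 0.0066 by limma) and 0.48 in the embryos (SE 0.14, adjusted p = 0.032 by limma). The strongest summit of this gene was not the same in all sets, at -31 bp in *grhM-* and -22 bp in *grhM+* at stage 6, against -667 bp in *grhM-* and -58 bp in *grhM+* at stage 5, so part of its values compare different peaks.

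mRpL32 and mRpL41 were the other members higher in both tests, by 0.37 and 0.32 in the pairs (SE 0.11 for each, adjusted p = 0.028 and 0.046 by limma) and by 0.43 and 0.47 in the embryos (SE 0.14 and 0.15, adjusted p = 0.047 and 0.043 by limma). mRpS14 was lower in both, at -0.32 in the pairs and -0.36 in the embryos (SE 0.10 and 0.11, adjusted p = 0.035 and 0.036 by limma). In total 6 members passed in both tests, mRpL52, mRpS25, mRpL32 and mRpL41 as higher and mRpL53 and mRpS14 as lower, which is no independent repeat because the embryos are shared. Apart from mRpL52, these calls were often lost when 1 embryo was left out. mRpS25 and mRpL53 passed in 3 of 11 such fits each, and in all 4 fits without 1 pair. mRpL32, mRpL41 and mRpS14 passed in 4 of 11 fits without 1 embryo and in 1 of 4 without 1 pair, each with the same sign throughout.

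In the pairs alone, mRpL21, which shares its summit with rept, was higher by 0.63 (SE 0.17, adjusted p = 0.017 by limma), mRpS7 by 0.45, mRpS24 by 0.44, mRpS29 by 0.39 and mRpL48 by 0.39. mRpS29 is known in mammals as DAP3, a GTP-binding protein of the small subunit. mRpS16 fell by 0.43 (SE 0.11, adjusted p = 0.016 by limma) and mRpL4 by 0.33 (SE 0.11, adjusted p = 0.045 by limma). The call of mRpL4 was kept in 0 of 4 fits without 1 pair and lost in 6 of 10 other alternatives (adjusted p of 0.025 to 0.82 by limma). Without 1 pair, mRpL21 and mRpS7 passed in 3 of 4 fits, mRpS16 in 2, and mRpL48, mRpS24 and mRpS29 in 1. In the embryos alone, mRpL19 fell by 0.48 (SE 0.13, adjusted p = 0.022 by limma), mRpL13 by 0.38 and mRpS28 by 0.32. Without 1 embryo, mRpL19 passed in 9 of 11 fits, and mRpL13 and mRpS28 in 3 each. All these differences were below 2-fold.

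Few of these calls stood apart from the spread between embryos. The 5 embryos of stage 6 did not overlap the 6 of stage 5 in either direction for 2 of 59 members (3.39%), mRpL52 and mRpS16, against 703 of 6762 genes (10.4%). mRpS16 had a scaled fold of 1.03, 0.951 and 0.747 in *grhM-Z-* and 1.02 and 1.07 in *grhM+Z+* embryos of stage 6, against 1.18, 1.15 and 1.47 in *grhM-Z-* and 1.23, 1.33 and 1.07 in *grhM+Z+* embryos of stage 5. Its difference in the embryos was -0.35 (SE 0.12), with an adjusted p of 0.052 by limma, so it did not pass there. Of 9 members called in the embryos, 8 had values in both pairs of the maternal experiment, and 6 of these (75%) moved in the same direction in both, against 1020 of 1208 genes (84.4%).

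The number of members called changed with single embryos. It was 2 without either of the *grhM+Z+* embryos of stage 6, 3 to 5 without 1 of 6 other embryos (*grhM-Z-* b or c of stage 6, and *grhM-Z-* b or c and *grhM+Z+* b or c of stage 5), 6 without *grhM-Z-* a of stage 6 or *grhM+Z+* a of stage 5, and 11 without *grhM-Z-* a of stage 5. In the pairs it was 5, 6, 8 and 9 without those of *grhM-*, *grhM-Z-*, *grhM+Z+* and *grhM+*. Counting only summits closest to a gene's own start site, chosen after seeing the data, left 29 members in the pairs with 2 calls (6.9%, against 24% of 5045 genes), and 33 members in the embryos with 6 calls (18.2%, against 17.7% of 5410 genes). The background at stage 6 was 9.65 and 11.39 in the maternal lists, against 7.12 and 7.02 at stage 5, and its part in these differences was not tested.

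**Figure D4:**
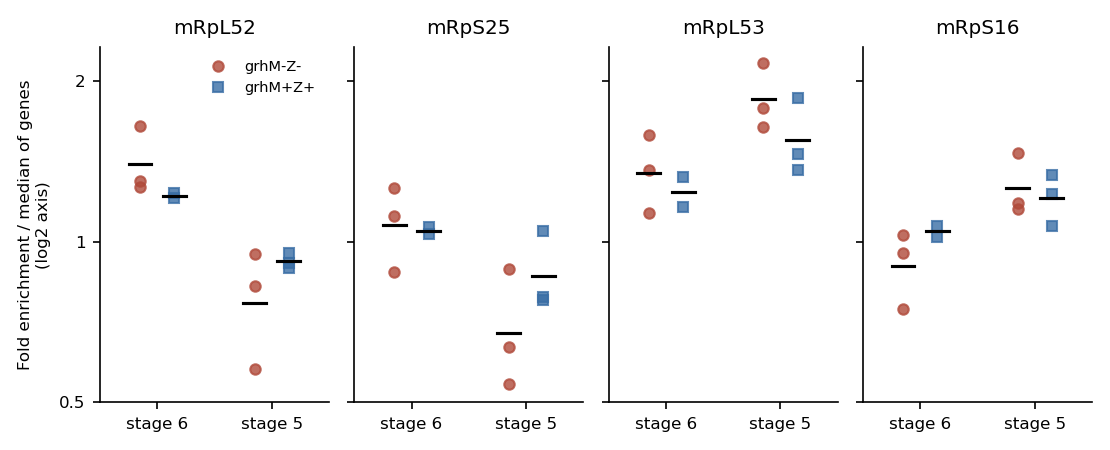
Fold enrichment of the start-site peak divided by the median over genes with a peak (y axis, log2-spaced) at 4 mRp genes in the 11 single embryos, by stage (x axis). Points are embryos, red circles grhM-Z- and blue squares grhM+Z+, and bars are means on the log2 scale. For mRpL52 all 5 embryos of stage 6 lie above the 6 of stage 5, for mRpS16 all lie below, and for mRpS25 and mRpL53 the stages overlap.

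The other gene groups gave shares of the same order. In the pairs, 8 of 80 cytoplasmic ribosomal protein genes were higher and 5 lower at stage 6 (16.3%), 4 and 3 of 60 respiratory chain genes (11.7%), and 2 and 1 of 18 genes of mitochondrial translation and gene expression (16.7%). In the embryos, 6 of 83 cytoplasmic ribosomal protein genes were higher and 7 lower (15.7%), and 5 and 2 of 62 respiratory chain genes (11.3%).

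The comparison of *grh* mutants with their controls asked whether these promoters need Grh for their accessibility in early embryos. In *grhM-Z-* against *grhM+Z+* embryos, 0 of 59 members passed at stage 5 and 0 at stage 6, and 0 of 6762 genes passed by limma (0% in each). At an unadjusted p below 0.05 there were 6 members and 570 genes at stage 5, and 1 member and 296 genes at stage 6. The interaction of stage and genotype had 0 calls as well (0% of all genes), with 1 member and 350 genes at an unadjusted p below 0.05.

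The 5 early pairs of mutant and control lists gave the same count. Of 53 members 0 passed, and of 6430 genes 0 passed by limma (0%), with 0 members and 250 genes at an unadjusted p below 0.05. The fitted log2 differences of the members ran from -0.13 for mRpL11 (SE 0.08) to 0.17 for mRpS23 (SE 0.09), with a median of 0.04 beside 0.01 for all genes. The next largest were mRpL24 (0.16), mRpL30 (0.15), mRpL18 (0.14) and mRpL41 (0.14) on the higher side and mRpL55, mRpS25, mRpL40 and mRpL16, at -0.10 to -0.08, on the lower side. Of these, mRpS23, mRpL24, mRpL18 and mRpL41 lie on chromosome 2, which carries *grh*. The paper called the apparent losses in *grhB37/B37* at stage 6, mostly on this chromosome, false positives. It ascribed them to mutations likely gathered on the *grhB37* chromosome, which hinder read mapping. The part of this in the members' differences was not tested. In these early pairs the members with a Grh string had differences of 0.03 (mRpS17), -0.05 (mRpS34) and 0.00 (mRpS26).

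Single embryos of these genotypes overlapped at most members. The 3 *grhM-Z-* embryos did not overlap the 3 *grhM+Z+* embryos at stage 5 for 6 members (10.2%, against 11.9% of all genes), nor the 2 at stage 6 for 10 members (17%, against 21.3%). The largest fitted differences were 0.51 for mRpL20 and -0.51 for mRpL21 at stage 5 and -0.50 for mRpL13 and 0.49 for mRpL33 at stage 6. None of these passed after adjustment. mRpL33 lies on X, and its scaled fold at stage 6 was 0.558 in *grhM+Z+* embryo a, which is in the high range of Y peaks, and 0.888 in embryo b. In the *grhM-Z-* embryos of stage 6 it was 0.830, 1.19 and 0.988.

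Pair by pair, without a test, 0 members differed by 2-fold or more in any early pair. The share of all genes past 2-fold was 1.33% for *grhM-* over *grhM+* at stage 5 and 0.262% at stage 6, 0.269% for *grhB37/B37* over *grhB37/+* at stage 6, and 0.0288% and 0.0492% for *grhM-Z-* over *grhM+Z+* at stages 5 and 6. The counts of members therefore say little beyond the small number of genes past this fold.

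At 11-12 h the members had a peak more often than all genes in *grhB37/+* and not in *grhB37/B37*. In *grhB37/B37*, 21 of the 73 members had a start-site peak (28.8%), close to the 30.1% of all genes, and in *grhB37/+* 62 had one (84.9%), against 59.8% of all genes. All 21 also had a peak in *grhB37/+*, and the other 41 had it in *grhB37/+* alone, which is 66.1% of the 62, against 51.4% of all genes with a peak there. Of the members with a Grh string, mRpS17 and mRpS34 were among these 41. mRpS26 had a peak in both lists, with a ratio of scaled folds of 0.957 in *grhB37/B37* over *grhB37/+*. The lists differ in length, with 10509 and 20540 peaks. When the *grhB37/+* list was reduced to its strongest 10509 peaks, an alternative chosen after seeing the data, 50 members kept a peak (68.5%, against 46.6% of all genes), and 58.0% of these had none in *grhB37/B37* (all genes 40.2%).

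Every group listed, all genes included, had fewer peaks in *grhB37/B37*. A peak was present there at 46 of 92 cytoplasmic ribosomal protein genes, against 82 in *grhB37/+* (89.1%) and 79.3% in the reduced *grhB37/+* list. Of 92 respiratory chain genes 25 had one in *grhB37/B37* (27.2%), against 64 in *grhB37/+* (69.6%) and 46 in the reduced list, a share near that of all genes. The 15 import genes had 26.7% in *grhB37/B37*, against 86.7% in *grhB37/+* and 53.3% in its reduced list. The 33 genes of mitochondrial translation and gene expression had 18.2% in *grhB37/B37*, against 51.5% in *grhB37/+* and 39.4% in its reduced list. Each condition is 1 library, so genotype and library cannot be told apart. A peak missing from a list is also no measure of closed chromatin. In its own test over all accessible regions at this time, the paper reported significant losses at a small set of regions, most of them bound by Grh. It also reported a general decrease at regions bound by Grh.

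Among the 21 members with a peak in both late lists, 1 differed by 2-fold, mRpL16, beside 0.271% of 4062 genes. Its scaled fold was 0.771 in *grhB37/B37*, against 1.56 in *grhB37/+*, a ratio of 0.494. The summit of mRpL16 lay at -452 bp from the start site in *grhB37/B37* and at -160 bp in *grhB37/+*. With scaling on common genes, chosen after seeing the data, the count was 0, and the median log2 ratio of all genes was 0.04, against -0.20 before.

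Some members ranked higher in the mutant list. mRpS18B was at percentile 90.4 in *grhB37/B37* and 53.7 in *grhB37/+*, with a fold enrichment of 2.78 and 2.39, and mRpL49 was at 82.7 and 67.6. These ranks rest on a shorter list, in which fewer genes had a peak at all.

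Late and early lists were set side by side within the zygotic experiment. The late libraries were pooled, sequenced from single ends and not selected for short fragments, so time and library type cannot be told apart. In both genotypes, 8.74% of 3845 genes differed by 2-fold in the same direction, 183 higher and 153 lower at 11-12 h, or 317 and 61 with scaling on common genes. Of the 21 members, 1 did, mRpL21, which was lower. Its scaled fold was 1.10 in *grhB37/B37* and 1.32 in *grhB37/+* at 11-12 h, against 2.86 in *grhB37/B37* and 2.84 in *grhB37/+* at stage 6.

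In *grhB37/+* alone, an alternative chosen after seeing the data, 17.4% of 7866 genes passed 2-fold, 654 higher and 712 lower, or 789 and 535 with scaling on common genes. Of 62 members, 0 were higher and 5 lower (8.06%). These were mRpL50 (ratio 0.386), mRpS17 (0.434), mRpS31 (0.451), mRpL15 (0.452) and mRpL21 (0.465). All 5 have a divergent partner, as do 79.5% of all members, and 4 are among the 10 members highest by mean percentile. That mean includes the stage 6 list by which the ratio is divided, so the overlap is no separate result. The members' highest fold enrichment was 4.55 at 11-12 h and 19.5 at stage 6. The part of this narrower range in the ratios was not tested. The scaled fold of mRpL15 was 0.913 at 11-12 h, against 2.02 at stage 6, and that of mRpL50 was 0.796, against 2.06. At stage 6 they lay at percentiles 97.9 and 98.4. The median fold enrichment over all genes with a peak, by which these values are divided, was 2.92 at 11-12 h and 6.89 at stage 6. On the other side the largest ratios were those of mRpL51 (1.6), mRpS35 (1.59), mRpL49 (1.53), mRpL16 (1.41) and mRpL2 (1.19). The median log2 ratio was -0.25 in the members and -0.18 in all genes.

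**Figure D5:**
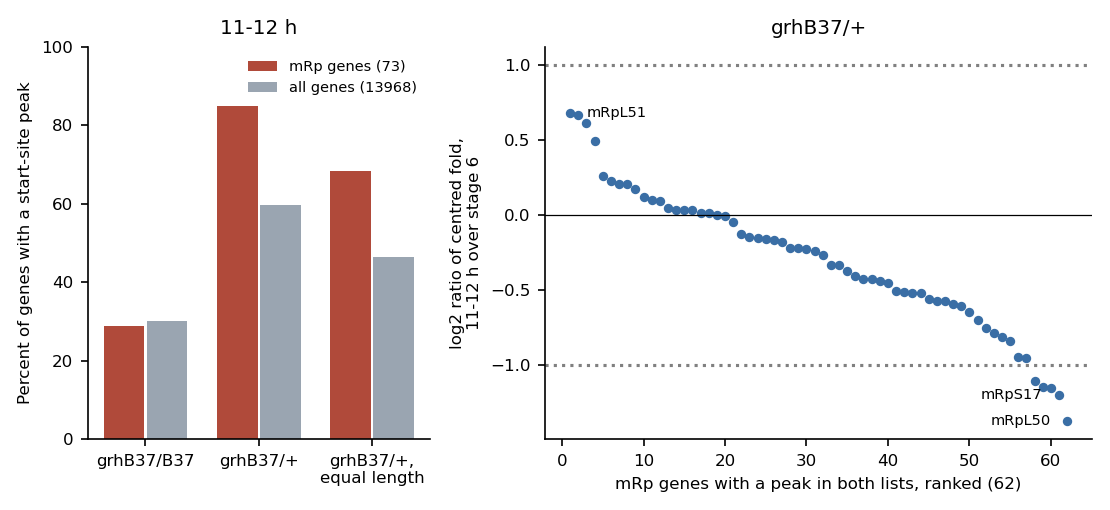
Left, percentage of genes with a start-site peak at 11-12 h (y axis, from 0) in grhB37/B37, in grhB37/+, and in grhB37/+ reduced to the length of the mutant list, for 73 mRp genes (red) and 13968 genes (grey). Right, log2 ratio of the scaled fold enrichment at 11-12 h over stage 6 in grhB37/+ (y axis) for the 62 mRp genes with both peaks in order of the ratio (x axis), with dotted lines at 2-fold. The mRp genes have 28.8%, 84.9% and 68.5% in the left plot, and 5 genes lie below the lower line in the right plot.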

How the data were processed

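ATAC-seq was performed on single embryos at stages 5 and 6 and on pools of 7 embryos at 11-12 h. The authors trimmed early reads with Trimmomatic 0.36, mapped reads to dm6 with Bowtie 2, removed mitochondrial and multiply mapping reads and, in early libraries, long fragments. Peaks were called by MACS2 with a q limit of 0.05. The deposited columns used here are, for every summit, a ratio (fold enrichment of the pileup over its background) and the −log10 of its q, with the −log10 p used for depth alone. Read counts were not used here.

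Start sites came from the Ensembl annotation of dm6. Peaks were assigned to every gene with a start site within 1000 bp of the summit, so neighbouring genes can share one. Log2 fold enrichment was centred on the median of genes with a peak. Embryos that a list keeps apart were ranked separately and averaged for the list. Pairs of lists (pair as block) and 11 embryos (4 groups) were tested with limma 3.58.1 in R 4.3.3 over genes with a peak in every set of the fit, and the fits were tested on simulated data. With 1 library per condition no test was made. Strings were searched in the reference sequence.

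Named members were the 10 highest and 5 lowest by mean percentile, those past a test or 2-fold, and the 5 largest differences per direction. Members and lists were chosen with earlier results of these data known. Alternatives were other windows (500 bp), peak choices, centrings, a −log10 q of at least 5, a fold of 1.5, and leaving out embryos or pairs. 178 listed rows without a summit position were left out.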

Additional observations from a re-analysis of the deposited data

Results flagged for a closer look

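The stage difference of mRpS18A, a small-subunit gene on chromosome 3R, had opposite signs in the genotypes of the maternal and zygotic experiment. Its scaled fold was 0.660, 0.620 and 0.605 in *grhM-Z-* embryos of stage 6, all below the 0.680, 0.724 and 1.15 of stage 5. In *grhM+Z+* embryos mRpS18A had 0.716 and 0.743 at stage 6, both above the 0.569, 0.647 and 0.709 of stage 5. The difference between the stage effects was -0.591 on the log2 scale (SE 0.27), and its test, the interaction in limma, did not pass (adjusted p = 0.92). Such opposite, fully separated directions occurred in 1 of 59 members (1.69%) and in 37 of 6762 genes (0.547%). The strongest summit of mRpS18A moved between positions from -970 to 833 bp among the 11 embryos, so these values come from different peaks.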

How the results depend on the processing

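Depth, the split of peaks between neighbouring genes and the lack of embryo values in 8 of the 12 lists limit all values. Lists hold only peaks past the authors' threshold, so a missing peak is no measure of closed chromatin. No paired analysis was possible because the embryos in the lists carry no replicate number, which concerns pairing by replicate. The tests on lists had the pair of lists as a block, and without it 11 members were called in the stage test. In the tests of stage, 13 members were called in the pairs of lists and 9 in the embryos. With missing values set to the lowest value of a list there were 8 and 2, 3 and 1 of them shared with these calls, among 73 members tested. With only genes whose peaks overlapped in all sets there were 8 and 5. Counting only summits closest to a gene's own start site, an alternative chosen after seeing the data, gave 2 in the pairs, a peak in every early set at 29 members and a median percentile of 55.7. mRpS24 then reversed in the pairs, at -0.18 (adjusted p = 0.31 by limma, over a range of 0.0052 to 0.31 in its alternatives). The causes were not tested. Leaving out 1 pair gave 5 to 9 calls and leaving out 1 embryo 2 to 11, and the genotype tests kept 0 calls in every fit. With a −log10 q of at least 5, 1 member passed 2-fold in *grhM-* over *grhM+* at stage 5 and 0 in *grhB37/B37* over *grhB37/+* at 11-12 h. At 1.5-fold these counts were 3 and 3, with 1 in *grhM-* over *grhM+* at stage 6, 3 for 11-12 h over stage 6 in both genotypes and 18 in *grhB37/+* alone. With scaling on common genes, chosen after seeing the data, mRpL16 was lost and 0 remained past 2-fold at 11-12 h. The TATA box share within 50 bp of the summit was 5.48%, against 23.3% within 100 bp. Over all genes, the stage tests called 989 of 3896 in the pairs and 835 of 4329 in the embryos with overlapping peaks alone, against 1694 of 6430 and 1292 of 6762. They called 1002 without the *grhM-* pair, and 653 and 813 without embryo a or b of *grhM+Z+* at stage 6. Past 1.5-fold instead of 2-fold there were 876 against 104 genes in *grhM-* over *grhM+* at stage 5, 258 against 25 at stage 6, 88 against 2 and 89 against 4 in *grhM-Z-* over *grhM+Z+* at stages 5 and 6, and 249 against 31 in *grhB37/B37* over *grhB37/+* at stage 6. At 11-12 h there were 389 against 11 in *grhB37/B37* over *grhB37/+*, 1077 against 336 over stage 6 in both genotypes and 3260 against 1366 in *grhB37/+* alone. With a −log10 q of at least 5 these 8 counts past 2-fold were 37, 9, 0, 1, 15, 7, 123 and 736, in the same order. Scaling on common genes gave 0 in *grhM-Z-* over *grhM+Z+* at stage 5 and 4 in *grhB37/B37* over *grhB37/+* at 11-12 h. The strongest peak by fold gave 0 in *grhM-Z-* over *grhM+Z+* at stage 5, and a window of 500 bp gave 1 at stage 6. Of the other counts, medians and shares for the members, 90 were close to the value in the report, and of the values of single called members 151 kept direction and call and 44 kept the direction alone. When 1 embryo or pair was left out, 70 of these values kept the call and 81 lost it with the direction kept.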

Other observations

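The genes tko and bonsai encode mitochondrial ribosomal proteins of the small subunit but are not named mRp, so they were not among the 73. The start-site peak of tko was listed in 15 sets, with a mean percentile of 48.7, and that of bonsai in 18 sets, with a mean percentile of 64.3.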
